A study of Mus musculus with 45 samples.

Results

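The genes followed here were chosen by name: 4 growth factors made by the oocyte (Gdf9, Bmp15, Bmp6 and Fgf8) and the receptor Kit. These 5 members, of 26214 genes in the deposited expression table, were read in 21 mouse RNA-seq libraries. Expression was given in TPM, a normalised transcript level in which the reads of a gene are divided by its length and each library is scaled to the same total, so that levels of different genes can be compared per length. The study asked whether dimethylation of histone H3 lysine 36 takes part in DNA methylation of the growing oocyte, and what its reduction by a mutant H3.3 does there and in the embryo that follows. Control females carried H3f3b K36M-flox/+ alone, an allele of the histone H3.3 gene H3f3b that yields the mutant protein only once Cre has acted. The K36M females carried H3f3b K36M-flox/+ together with Gdf9-Cre, a recombinase driven by the promoter of Gdf9, which is active in oocytes, and their oocytes made H3.3 with methionine in place of lysine 36 and an HA tag. Fully grown oocytes (FGOs) came from females aged 3 to 4 weeks on a hybrid C57BL/6 / 129 background, with 5 FGOs pooled in each library, and there were 3 control and 3 K36M libraries. Late two-cell embryos came from oocytes of both genotypes after superovulation and in vitro fertilization with JF-1 sperm, were collected 31 to 32 hours later, and were sequenced 1 embryo to a library. The embryo groups are named by the females, and since these were heterozygous the embryos of a group could inherit either H3f3b allele. There were 7 control and 8 K36M oocyte-derived embryos, since control embryo 4, which the study excluded, was left out. The sources did not say which libraries came from separate females, so the p-values measure the spread between these libraries. TPM values hold no read counts per gene, so no counting interval is given. The study lists fewer total reads for every two-cell library than for any FGO library.

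GDF9 and BMP15 are secreted members of the TGF-beta superfamily that oocytes send to the granulosa cells around them, and their loss disturbs follicle growth, cumulus expansion and fertility. BMP6 is a BMP ligand of the same superfamily, and FGF8 is a fibroblast growth factor that acts with BMP15 on cumulus cells. KIT is a receptor tyrosine kinase on the oocyte surface that answers KIT ligand from granulosa cells through PI3K and the transcription factor FOXO3. After fertilization, transcripts stored in the oocyte are removed while the embryonic genome is switched on.

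By RefSeq, in the mm10 assembly (GRCm38.p6), Gdf9 lies on chromosome 11 at 53430774-53437904 on the plus strand with 2 exons. Its locus overlaps Uqcrq on the other strand without shared exon bases. Bmp15 lies on chromosome X at 6314054-6320724 on the minus strand with 2 exons. Bmp6 lies on chromosome 13 at 38345716-38500314 on the plus strand with 7 exons, and 49 of the 2996 exon bases of its longest transcript overlap exons of Txndc5 on the other strand. Since the strand setting of the counting was not given in the sources used here, reads from those 49 bases cannot be assigned to Bmp6 or Txndc5 with certainty. Fgf8 lies on chromosome 19 at 45736491-45742941 on the minus strand, with 6 curated transcripts, and Kit lies on chromosome 5 at 75574987-75656722 on the plus strand with 21 exons in its longest transcript.

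RefSeq promoter windows, from 250 bases before to 50 bases after the gene start in GRCm38.p6, were at hand for 3 of the 5 members: Bmp15, which fell strongly between the stages, Kit, which fell less, and Bmp6, which did not pass the test. They show the sequence at the start of these members and how its base composition differs among them, which was not tested against their change. The windows are X:6320675-6320974 on the minus strand for Bmp15, 13:38345466-38345765 on the plus strand for Bmp6 and 5:75574737-75575036 on the plus strand for Kit. Capitals mark the motifs searched on both strands: CANNTG (the E-box), TAATTG or TAATTA (the form bound by NOBOX) and TATAAA, which reads TTTATA on the other strand.
Bmp15: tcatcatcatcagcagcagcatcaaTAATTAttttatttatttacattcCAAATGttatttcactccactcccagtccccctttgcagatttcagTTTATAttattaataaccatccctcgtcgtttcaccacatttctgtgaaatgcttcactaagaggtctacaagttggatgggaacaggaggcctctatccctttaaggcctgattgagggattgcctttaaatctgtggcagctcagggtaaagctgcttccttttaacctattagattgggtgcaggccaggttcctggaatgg
Bmp6: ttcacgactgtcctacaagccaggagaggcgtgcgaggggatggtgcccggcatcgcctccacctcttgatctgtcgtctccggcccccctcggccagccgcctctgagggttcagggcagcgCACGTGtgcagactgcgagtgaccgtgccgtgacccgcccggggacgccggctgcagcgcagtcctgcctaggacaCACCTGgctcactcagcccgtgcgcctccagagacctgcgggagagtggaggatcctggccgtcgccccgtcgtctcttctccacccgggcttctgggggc
Kit: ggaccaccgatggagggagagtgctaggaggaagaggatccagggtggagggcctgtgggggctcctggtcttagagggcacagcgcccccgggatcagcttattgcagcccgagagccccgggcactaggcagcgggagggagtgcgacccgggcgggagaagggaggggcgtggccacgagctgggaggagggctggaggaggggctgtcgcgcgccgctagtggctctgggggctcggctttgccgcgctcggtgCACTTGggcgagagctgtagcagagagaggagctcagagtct
The Bmp15 window held 2 CG dinucleotides and 41.7% G or C, and 14.7% of 27018 promoters held fewer CG dinucleotides. The Bmp6 window held 27 CG dinucleotides, more than 84.6% of promoters, and the Kit window held 20, more than 73.2%. CANNTG was found in all 3 windows and in 72.2% of all promoters, once in Bmp15 and Kit and at 2 places in Bmp6. TAATTG or TAATTA was found in the Bmp15 window alone of the 3, against 12.6% of all promoters, and TATAAA likewise in Bmp15 alone, against 14.2% of all promoters. A motif found here is a description of the letters and not a binding site.

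Several measures of the libraries stand beside the results. The 10 oocyte markers (such as Zp3 and Nlrp5) were all above a mean of 1 TPM in every group, and their summed level was 14207 to 14729 TPM in control FGOs and 12092 to 12769 TPM in K36M FGOs, without overlap. The summed level of 15 granulosa and cumulus markers was 151 to 173 TPM in control FGOs and 154 to 243 TPM in K36M FGOs. Of these sums, Nr5a2 alone made up 67.1 to 77.1 TPM in control FGOs and 72.6 to 140.8 TPM in K36M FGOs. Of the 15 granulosa and cumulus markers, 13 in control and 11 in K36M FGOs had a mean of at least 1 TPM. Cyp19a1 among them had means of 25.1 and 24.9 TPM. Ptx3 was listed at 0 in all control and Tnfaip6 in all K36M FGO libraries. The 9 theca and stroma markers summed to 12.0 to 18.5 TPM over the 6 FGO libraries and the 9 blood and endothelial markers to 53.9 to 68.8 TPM. Of the blood and endothelial markers, 2 in control and 1 in K36M FGOs had a mean of at least 1 TPM. Hbb-bt, Hba-a1, Hba-a2 and Adgre1 were listed at 0 in all 6 FGO libraries. The 8 zygotic markers (such as Zfp352) summed to 34.5 to 73.9 TPM in FGOs and to 270.4 to 2440.0 TPM in the embryos used. H3f3b, the targeted gene, stood at 293 ± 24.6 TPM (SD, n = 3) in control and 398 ± 20.8 TPM (SD, n = 3) in K36M FGOs, a log2 difference of 0.44 with an adjusted p of 0.281 by limma. A value summed over both alleles of H3f3b does not test for the mutant. In a pool of cells, fewer cells of a type and less RNA per cell cannot be told apart.

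In control FGOs, Gdf9 and Bmp15 were among the most abundant transcripts of all. Gdf9 stood at 4969, 5082 and 4774 TPM and ranked 3rd or 4th of 26214 genes in every FGO library. Bmp15 stood at 2048, 2082 and 2124 TPM and ranked 25 to 27. The other ligands were far lower. Bmp6 stood at 218, 255 and 228 TPM and Fgf8 at 272, 267 and 195 TPM. Kit, the receptor, lay between these groups at 349, 336 and 394 TPM. Together the 5 members made up 0.786 ± 0.015% (SD, n = 3) of all TPM in control FGOs. By mean TPM the order was Gdf9, Bmp15, Kit, Fgf8 and Bmp6, and each step held in 3 of 3 control libraries except the last, since Fgf8 was above Bmp6 in 2 of 3. Bmp6 and Fgf8 therefore did not differ beyond their spread in control FGOs.

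The members differed in how closely control FGO libraries matched. The SD of log2(TPM + 1) was 0.026 for Bmp15 and 0.27 for Fgf8, against a median of 0.066 and 0.078 for genes of a like level. In K36M FGOs the order was the opposite, with an SD of 0.17 for Bmp15 and 0.042 for Fgf8, against medians of 0.11 and 0.12. The lowest Fgf8 value was that of control library 3, at 195 TPM, which was below the other FGO libraries of both genotypes.

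The first comparison asked whether H3.3K36M in the oocyte altered the transcripts of these factors. Differences are given as log2 fold changes of log2(TPM + 1), K36M minus control, with the standard error (SE) of limma, and a gene was called where its Benjamini-Hochberg adjusted p over all genes tested was under 0.05. None of the 5 members was called by limma in FGOs, where 1 of 13775 genes tested, 0.00726%, was called. At an unadjusted p under 0.05 there was 1 member, Bmp15, and 10.5% of all genes.

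Gdf9 was the member that differed least. It stood at 4999.7, 4625 and 5034 TPM in K36M FGOs, inside and around the control range. Its log2 fold change was -0.017 (SE 0.058, adjusted p = 0.937, limma), with a 95% interval of -0.15 to 0.12.

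Bmp15, the partner of GDF9 in signalling to granulosa cells, was lower in all K36M FGO libraries than in any control library. The K36M values were 1960.05, 1573 and 1648 TPM against 2048 to 2124 TPM in controls. The log2 fold change was -0.28 (SE 0.084), with a 95% interval of -0.47 to -0.087, an unadjusted p of 0.00938 and an adjusted p of 0.383 by limma. It was the 1 member of 5 whose FGO groups did not overlap, as against 15.6% of all genes tested, or 8.17% with K36M lower. An exact two-sided permutation test gave p = 0.1, the smallest that 3 against 3 libraries allow. Bmp15 passed the adjusted threshold once K36M FGO library 1, which held the K36M value nearest the controls, was left out. The log2 fold change was then -0.37, with an adjusted p of 0.0270 by limma, and 300 of 13799 genes were called. Over all 6 fits without 1 FGO library the log2 fold change was -0.37 to -0.21 and the adjusted p 0.0270 to 0.712 by limma. The summed oocyte markers moved with Bmp15 (above), with 7 of their 10 genes negative, 6 of these at an unadjusted p under 0.05, while Mos was positive at 0.42 (unadjusted p = 0.00159, adjusted p = 0.306, limma). Of all genes tested, 47.9% were negative and 10.5% had an unadjusted p under 0.05, in either direction. Their part in the Bmp15 difference was not tested.

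The 3 remaining members overlapped between the genotypes in FGOs. Bmp6 stood at 253, 212 and 207 TPM in K36M libraries, with a log2 fold change of -0.063 (SE 0.10, adjusted p = 0.854, limma). Kit stood at 337, 271 and 344 TPM, with a log2 fold change of -0.19 (SE 0.11, adjusted p = 0.579, limma) and an interval of -0.43 to 0.063. It was -0.075 without K36M FGO library 2 and -0.12 without control FGO library 3. Fgf8 was the 1 member with a positive value (4 of 5 were negative, against 47.9% of all genes), at 275, 265 and 281 TPM, a log2 fold change of 0.18 (SE 0.13, adjusted p = 0.640, limma) and an interval of -0.11 to 0.46. Without control FGO library 3 the value for Fgf8 was 0.022. The K36M order of levels was that of the controls, and Fgf8 was above Bmp6 in 3 of 3 K36M libraries.

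**Figure D1:**
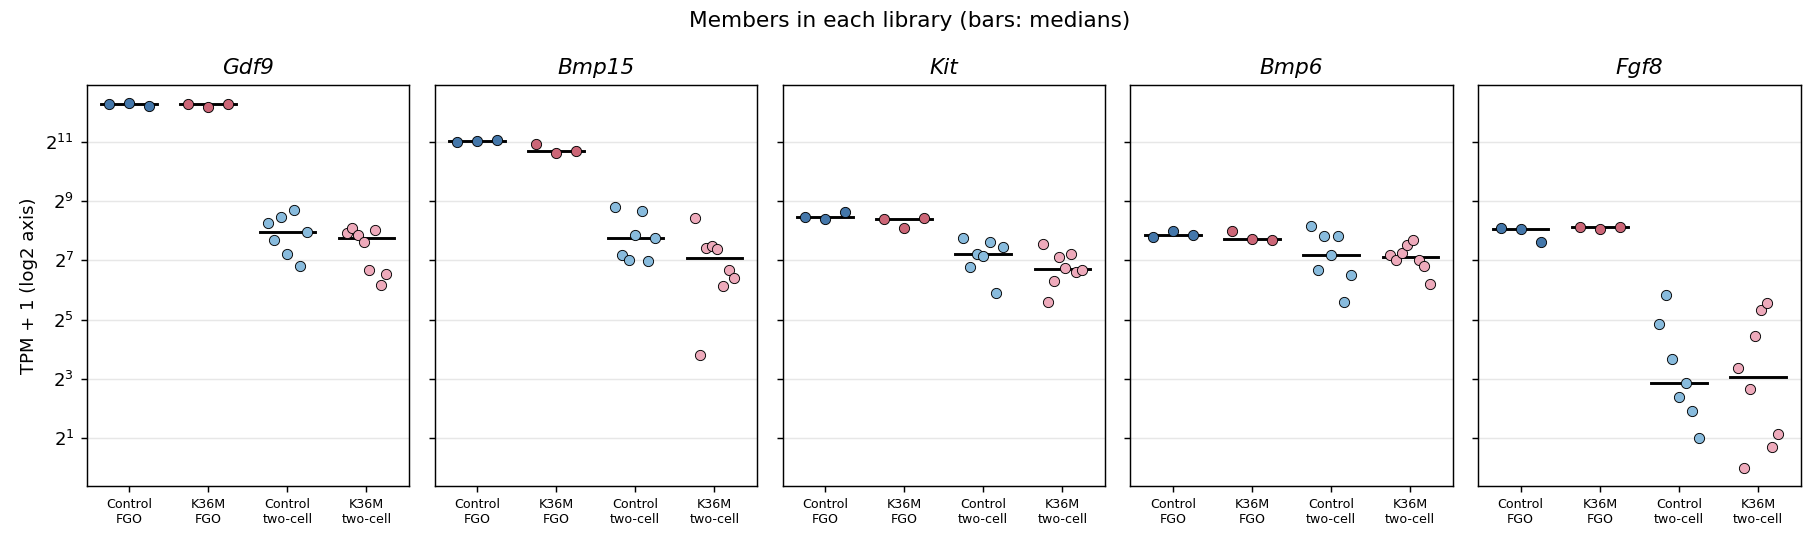
TPM + 1 on a log2 axis for the 5 members in every library used, with a bar at the median of each group (3 control FGO, 3 K36M FGO, 7 control and 8 K36M two-cell libraries). Gdf9, Bmp15, Kit and Fgf8 in the embryos lie below all FGO libraries, while Bmp6 overlaps between the stages, and 1 K36M embryo is far below the others for Bmp15.

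The second comparison took the embryos, which inherit their early transcripts from the oocyte. Among control embryos, Gdf9 ranged from 110 to 419 TPM with a median of 250.05, and Bmp15 from 124 to 447 TPM with a median of 214. Among K36M oocyte-derived embryos, Gdf9 ranged from 70.1 to 271 TPM with a median of 215, and Bmp15 from 12.8 to 342 TPM with a median of 133. The lowest Bmp15 value by far was that of K36M embryo 2, and the genotypes overlapped for both genes. No member separated the genotypes without overlap, as 0.115% of genes did, or 0.0922% with K36M lower. None of the 5 members was called by limma, where 0 of 17362 genes tested were called (0%). At an unadjusted p under 0.05 there was again 1 member, Bmp15, and 7.71% of all genes.

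All 5 members had negative log2 fold changes in the embryos, as did 63.8% of all genes tested, whose median was -0.26. Under other scalings of the libraries that median was -0.036 (quantile) or -0.17 (median of ratios), and Bmp6 alone of the members changed sign, to 0.085 under the median of ratios. Bmp15 had the largest value, -1.04 (SE 0.50), with a 95% interval of -2.07 to -0.0064, an unadjusted p of 0.0487 and an adjusted p of 0.644 by limma. An exact two-sided permutation test over the 7 and 8 embryos gave p = 0.0903 for Bmp15, or 0.181 adjusted over 20 such tests of members. Of 8 K36M embryos, 4 were below all control embryos for Bmp15. Without K36M embryo 2 the log2 fold change of Bmp15 was -0.62.

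Gdf9 followed at -0.51 (SE 0.36, adjusted p = 0.724, limma), with an interval of -1.25 to 0.22 and 3 of 8 K36M embryos below all controls. It was -0.34 without K36M embryo 7. Kit ranged from 58.1 to 218 TPM in control embryos and from 47.7 to 187 TPM in K36M embryos, and its log2 fold change was -0.40 (SE 0.35, adjusted p = 0.763, limma). It was -0.24 without K36M embryo 2 and -0.61 without control embryo 7. Bmp6 was close to 0 at -0.021 (SE 0.36), but its interval of -0.77 to 0.73 was wide. Fgf8 was too low and too variable in the embryos to compare closely. It ranged from 1.00 to 55.2 TPM in control embryos and was listed at 0 in 1 K36M embryo, which otherwise ranged up to 46.1 TPM, and its interval was -2.27 to 1.65.

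The genotype-by-stage interaction, which tests whether the K36M difference changed between FGOs and embryos, was called for 0 of the 5 members and for 0 of 17358 genes by limma (0%). At an unadjusted p under 0.05 there was no member and 1.15% of all genes. For Bmp15 the interaction was -0.76 (SE 0.85), with an interval of -2.51 to 0.99, and it was -0.35 without K36M embryo 2.

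**Figure D2:**
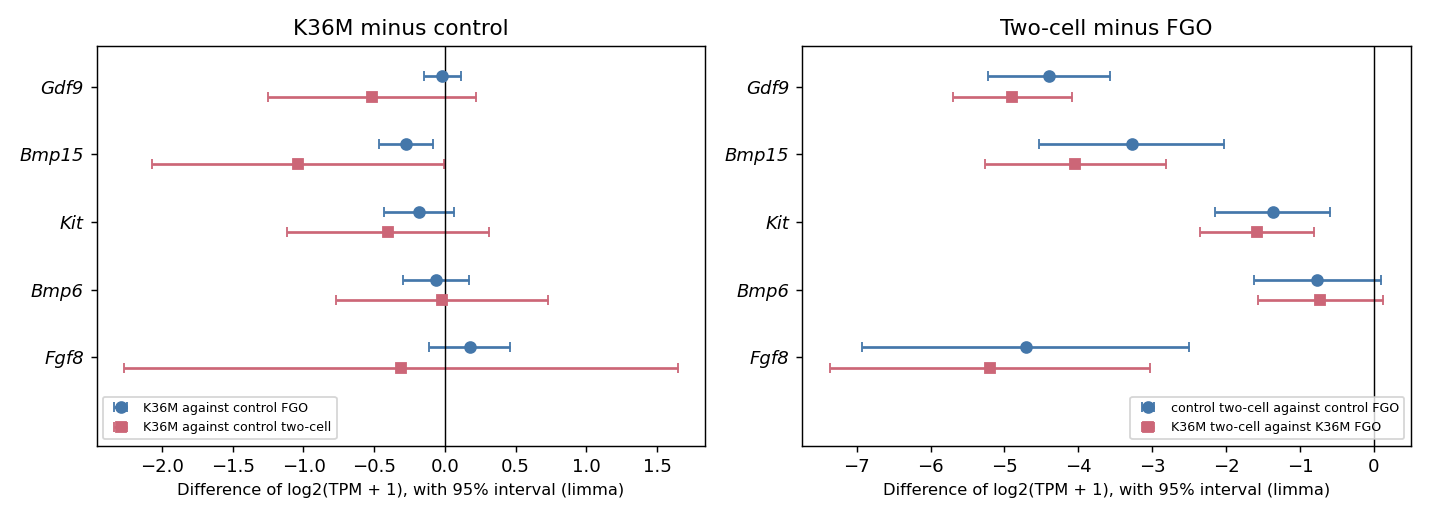
Differences of log2(TPM + 1) with 95% intervals from limma, K36M minus control on the left and two-cell minus FGO on the right. On the left the Bmp15 intervals end at -0.087 in FGOs and -0.0064 in embryos and those of the other members span 0, and on the right the Bmp6 intervals alone span 0.

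The larger contrast was between the stages. In controls, 4 of the 5 members fell from FGO to two-cell embryo, where 26.6% of 17358 genes were called and 13.2% were called lower, and all 5 had negative values, against 48.8% of all genes. In K36M samples the same 4 fell, where 29.3% of genes were called and 18.6% were called lower, and all 5 had negative values, against 53.8% of all genes. At an unadjusted p under 0.05 there were 4 members in either genotype, against 37.5% of all genes in controls and 39.1% in K36M samples. The stage went together with pools of 5 FGOs against single embryos, fewer total reads and more amplification cycles in the embryos, superovulation, fertilization and the sperm strain, and these cannot be told apart. Under the median-of-ratios scaling the control call of 2323 genes higher and 2292 lower became 1954 and 3118, and the 4 members stayed called lower under this and the quantile scaling.

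Gdf9 fell most in TPM. The mean was 4942 ± 155 TPM (SD, n = 3) in control FGOs and 256 ± 111 TPM (SD, n = 7) in control embryos, 19.3 times lower. Its log2 fold change was -4.40 (SE 0.40, adjusted p = 1.26e-08, limma) in controls and -4.89 (SE 0.39, adjusted p = 1.24e-09, limma) in K36M samples, where the mean fell from 4886 ± 226 TPM (SD, n = 3) to 183 ± 82.0 TPM (SD, n = 8). Gdf9 dropped from rank 3 or 4 to a median rank of 931 in control and 1160 in K36M embryos.

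Bmp15 had the next largest fall in TPM. Its mean went from 2085 ± 38.1 TPM (SD, n = 3) to 243 ± 134 TPM (SD, n = 7) in controls, 8.59 times lower, and from 1727 ± 205 TPM (SD, n = 3) to 140 ± 100 TPM (SD, n = 8) in K36M samples, 12.3 times lower. The log2 fold changes were -3.28 (SE 0.61, adjusted p = 0.000257) and -4.04 (SE 0.59, adjusted p = 1.46e-05) by limma. The stages did not overlap for Bmp15 in either genotype, as for 18.2% of all genes lower in control embryos and 17.2% lower in K36M embryos.

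Fgf8 was close to lost in many embryos. From 195 to 272 TPM in control FGOs it went to values of 27.5, 55.2, 11.9, 4.16, 6.32, 2.76 and 1.00 TPM in control embryos, and the mean was 15.7 times and the median 42.3 times lower. From 265 to 281 TPM in K36M FGOs it went to 9.39, 5.29, 20.8, 39.2, 46.1, 0.637 and 1.19 TPM, with 1 embryo listed at 0, and the mean was 17.8 times and the median 37.5 times lower. The log2 fold changes were -4.71 (SE 1.07, adjusted p = 0.00194) and -5.20 (SE 1.05, adjusted p = 0.000578) by limma, with the widest errors of the 5 members.

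Kit changed by a smaller factor. The means were 360 ± 30.6 TPM (SD, n = 3) in control FGOs and 149 ± 54.0 TPM (SD, n = 7) in control embryos, 2.41 times lower, and 317 ± 40.5 TPM (SD, n = 3) and 112 ± 43.4 TPM (SD, n = 8) in K36M samples, 2.82 times lower. The log2 fold changes were -1.37 (SE 0.38, adjusted p = 0.00923) and -1.58 (SE 0.37, adjusted p = 0.00229) by limma. Without control FGO library 3, which had the highest Kit value, the control change was -1.299 with an adjusted p of 0.0523.

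Bmp6 was the member that did not pass. Control embryos ranged from 46.7 to 288 TPM with a median of 143, around the control FGO values, with 1 embryo above and 4 below all FGO libraries. K36M embryos ranged from 72.4 to 207 TPM with a median of 137, and 7 of 8 lay below all K36M FGO libraries. The log2 fold change was -0.76 (SE 0.42, adjusted p = 0.188, limma) in controls, with an interval of -1.63 to 0.097, and -0.72 (SE 0.41, adjusted p = 0.200, limma) in K36M samples, with an interval of -1.57 to 0.12. Under the median-of-ratios scaling the control value was -1.08 with an adjusted p of 0.0466. In controls this interval included a fall as large as that of Kit. The Txndc5 transcript that shares exon bases with Bmp6 stood at 312 TPM in control FGOs and 31.1 TPM in control embryos.

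Exact two-sided permutation tests gave p = 0.00833 in controls and p = 0.00606 in K36M samples for each of Gdf9, Bmp15, Fgf8 and Kit, the smallest values that 3 against 7 and 3 against 8 libraries allow, and 0.0208 after adjustment over 20 tests. For Bmp6 they gave 0.242 and 0.0424, or 0.345 and 0.0943 adjusted.

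Many abundant oocyte transcripts fell between the stages, and the members took different places among them. Of 2409 genes with a mean of at least 100 TPM in control FGOs, 35.2% were called lower and the median log2 fold change was -0.87. Only 2.99% of these genes fell more than Fgf8 and 4.23% more than Gdf9, while 10.9% fell more than Bmp15, 37.9% more than Kit and 52.7% more than Bmp6. In K36M samples, over 2483 such genes with a median of -0.997, the shares were 2.50%, 3.75%, 8.30%, 37.3% and 56.1% in the same order of genes.

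The order of levels varied from embryo to embryo. By mean TPM it was Gdf9, Bmp15, Bmp6, Kit and Fgf8 in controls. Gdf9 was above Bmp15 in 4 of 7 control embryos and Bmp6 above Kit in 4 of 7, so these neighbours did not differ beyond their spread. In K36M embryos the order was Gdf9, Bmp6, Bmp15, Kit and Fgf8, and the first 3 steps held in 6, 5 and 5 of 8 embryos. Kit was above Fgf8 in 7 of 7 control and 8 of 8 K36M embryos. Together the members made up 0.0823 ± 0.0346% (SD, n = 7) of TPM among control embryos, and 0.0591 ± 0.0190% (SD, n = 8) among K36M embryos.

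The ratio of Gdf9 to Bmp15 within a library is unchanged by any 1 factor applied to the whole library. Control FGOs had ratios of 2.43, 2.44 and 2.25, and K36M FGOs had 2.55, 2.94 and 3.05. All K36M FGO ratios were above all control ratios, a log2 difference of 0.26 with p = 0.1 by exact permutation, again the smallest that 3 against 3 allow. Control embryos ranged from 0.641 to 2.75 with a median of 1.02, and K36M embryos from 0.618 to 21.2 with a median of 1.10. The highest ratio was that of K36M embryo 2, whose Bmp15 was 12.8 TPM.

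The mean log2 ratio went from 1.24 ± 0.066 (SD, n = 3) in control FGOs to 0.12 ± 0.71 (SD, n = 7) in control embryos, a difference of -1.12. The exact permutation test gave p = 0.05, or 0.2 adjusted over 4 comparisons, which did not pass. Leaving out 1 library at a time gave differences from -1.34, without control embryo 3, to -0.99. The exact permutation p of these runs, not adjusted, was 0.0119 to 0.111, lowest without that embryo. In K36M samples it went from 1.51 ± 0.14 (SD, n = 3) to 0.66 ± 1.72 (SD, n = 8), a difference of -0.84 with an exact permutation p of 0.424. Leaving out 1 library at a time gave differences from -1.38, without K36M embryo 2, to -0.65. The exact permutation p of these K36M runs, not adjusted, was 0.0417 to 0.592, lowest without that embryo. Between the embryo genotypes the difference was 0.54 (exact permutation p = 0.531), and 0.0043 without K36M embryo 2.

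**Figure D3:**
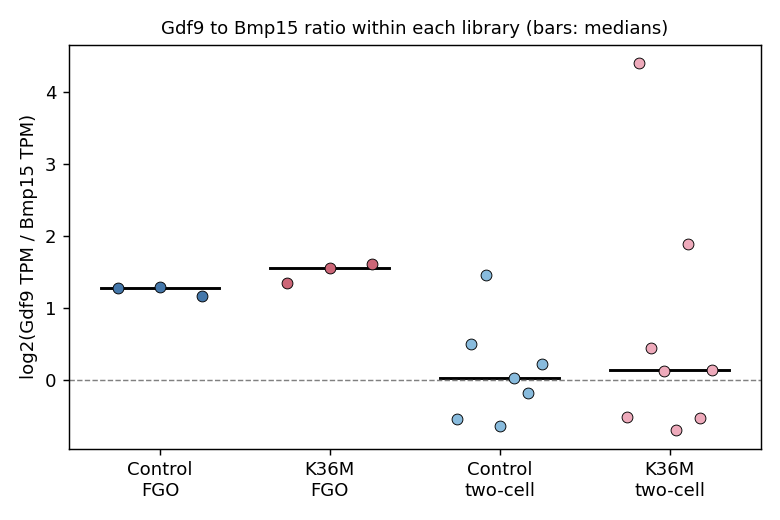
Log2 of the Gdf9 to Bmp15 TPM ratio in every library, with a bar at the median of each group and a dashed line where both genes have the same TPM. The 6 FGO libraries lie between 1.17 and 1.61, and the embryos spread around 0, with K36M embryo 2 at 4.40.

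Across single embryos no correlation of Gdf9 with Bmp15 passed the test in either genotype. In 7 control embryos Pearson's r of log2(TPM + 1) was 0.52 (exact permutation p = 0.223) and Spearman's rho 0.46 (exact p = 0.302), and without the 2 embryos farthest from the Gdf9 median r was 0.48. In 8 K36M embryos r was -0.15 (exact permutation p = 0.752) and rho -0.21 (exact p = 0.619), and without the 2 farthest embryos r was -0.36. Of the 4 coefficients, adjusted p was 0.605 in controls and 0.752 in K36M embryos for both measures.

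Single embryos had larger SDs than FGO pools. The SD of log2(TPM + 1) for Gdf9 was 0.046 in control FGOs and 0.69 in control embryos. Bmp15 in K36M embryos had an SD of 1.39, against a median of 0.74 for 2639 genes of a like level. Bmp6 in K36M embryos had an SD of 0.46 and was less variable than most genes of its level, of which 14.8% were below it. In control embryos its SD was 0.92, above that of 78.2% of genes of its level.

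The genes whose profile over the 21 libraries was most like that of each member were found by the root mean square difference of log2(TPM + 1) after centring. For Gdf9 they were Steap2 (0.57), Padi6 (0.62), a maternal protein of the egg cortex, and Mfng (0.63), against a median of 2.43 over all genes. For Bmp15 they were Uchl1 (0.54), a deubiquitinating enzyme, Ipcef1 (0.69) and the oocyte homeobox gene Obox1 (0.69), against a median of 2.202. For Bmp6 they were Rapgef5 (0.37), Smurf2 (0.40) and Ybx2 (0.41), an RNA-binding protein of germ cells, against a median of 1.43. For Fgf8 they were B3galnt1 (1.05), Rfc2 (1.14) and Fbxw25 (1.19), against a median of 2.88. For Kit they were Axin2 (0.35), Ube2d3 (0.39) and Chsy1 (0.39), against a median of 1.47. Gdf9 and Bmp15 differed from each other by 1.16, and Kit and Bmp6 by 0.62.

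The receptors, carriers and regulators of these signals are given next, beside all 17358 genes tested between the stages, of which 13.4% were called higher and 13.2% lower in controls and 10.8% and 18.6% in K36M samples. Listed genes at or near 0 in FGOs entered this fit only where embryos were higher, which can raise the list medians. Of 12 TGF-beta superfamily receptors, 11 were tested between the stages in controls, and 1 was called higher and 2 lower (median log2 fold change -1.16, against 0.0017 over all genes). Bmpr1b, a type I BMP receptor, fell from 168 ± 1.53 TPM (SD, n = 3) to 36.5 ± 8.87 TPM (SD, n = 7), a log2 change of -2.20 (SE 0.36, adjusted p = 5.87e-05, limma). Acvr1b, a type I activin receptor, fell by 3.80 on the log2 scale (adjusted p = 0.00149, limma), and Amhr2, the receptor of anti-Mullerian hormone, rose by 4.34 (adjusted p = 0.00523, limma). Amhr2 was at 1.17 ± 0.345 TPM (SD, n = 3) in control FGOs, too low over the FGO libraries for the FGO fit, and passed the filter between the stages through the embryos. Bmpr2, the type II receptor of BMP15 and GDF9, had a value of -0.29 (adjusted p = 0.602), Tgfbr1, the type I receptor used by GDF9, had 1.44 (adjusted p = 0.127) and Acvr2a had -1.16 (adjusted p = 0.401) by limma. In K36M samples 1 receptor was called higher and 4 lower. Amhr2, and Inha and Kitl below, also stood in the granulosa and cumulus list, which summed to 234 to 440.2 TPM in control embryos and 104 to 623 TPM in K36M embryos. Of its 13 markers tested between the stages, 1 was called higher and 2 lower in controls and 1 higher and 1 lower in K36M samples. Cyp19a1, the aromatase gene and a marker of that list, fell from a mean of 25.1 TPM in control FGOs to 0.803 TPM in control embryos, a log2 change of -3.95 (SE 0.70, adjusted p = 0.000152, limma), and by 4.24 on the log2 scale in K36M samples (adjusted p = 4.69e-05, limma).

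Of the 20 other superfamily ligands tested in controls, 2 were called higher and 1 lower, with a median log2 fold change of 0.78. Only 10 of these ligands passed the filter in the FGO fit. The rest passed through the embryos alone, so the positive median depends on the filter. Gdf11 rose by 2.58 (adjusted p = 0.0184, limma) and Inha, the inhibin alpha subunit, fell by 2.41 (adjusted p = 0.0490, limma). Gdf5, also called higher, was listed at 0 in all 6 FGO libraries and at 0 to 25.9 TPM in control embryos, through which alone it passed the filter. The call of Inha and that of Gdf5 were lost under the quantile scaling. In K36M samples 0 of the 20 ligands were called at the adjusted threshold by limma and 2 had an unadjusted p under 0.05, while the quantile scaling called 1.

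SMAD proteins carry the signal of these receptors, and of 8 tested the inhibitory members Smad7 and Smad6 were called in controls. Both were below 1 TPM in control FGOs and passed the filter only through the embryos. Smad7 rose by 6.98 on the log2 scale (adjusted p = 4.26e-11, limma) from 0.496 ± 0.184 TPM (SD, n = 3) to 194 ± 53.0 TPM (SD, n = 7), and Smad6 rose by 2.82 (adjusted p = 0.0263, limma). The signalling members Smad2 and Smad5 had values of -1.17 (adjusted p = 0.297) and -0.99 (adjusted p = 0.425) by limma, and the median of the list was -1.05. Of 5 secreted antagonists tested, 0 were called in controls by limma and 1 had an unadjusted p under 0.05, and Fst (follistatin) had a value of -0.84 (adjusted p = 0.603, limma). In K36M samples 1 SMAD gene was called higher and 2 lower, and 1 antagonist was called lower.

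The convertases cut the precursors of these ligands. Of 4 tested in controls, 1 was called, with a list median of -0.24. That median depends on Pcsk4, at 0.582 TPM in control FGOs, which passed the filter through the embryos alone. Pcsk4 had a value of 2.22 (adjusted p = 0.115) and Pcsk7 of 1.17 (adjusted p = 0.175) by limma. Furin fell from 216 ± 5.37 TPM (SD, n = 3) to 69.8 ± 26.1 TPM (SD, n = 7), a log2 change of -1.70 (SE 0.62, adjusted p = 0.0461, limma), and fell by 2.60 in K36M samples (adjusted p = 0.00237, limma). Pcsk6 had a value of -1.66 (adjusted p = 0.0893, limma), and Pcsk5, at 1.33 ± 0.0755 TPM (SD, n = 3) in control FGOs, was below the level needed for a test between the stages.

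Around Fgf8, 18 FGF ligands, receptors and feedback genes were tested in controls, and 4 were called higher and 2 lower, with a median of 0.52. Only 13 of these genes passed the filter in the FGO fit, so the median depends on genes that passed through the embryos alone. The 4 called higher were all below 1 TPM in control FGOs and passed the filter through the embryos. The feedback inhibitor Spry2 rose by 6.13 (adjusted p = 2.16e-07, limma). Fgf4, also called higher, was listed at 0 in all FGO libraries and stood at 12.5 to 69.3 TPM in control embryos. Fgfr2 fell by 2.40 (adjusted p = 0.0308, limma) and Fgf10 by 2.28 (adjusted p = 0.0122, limma), while Fgfr1 had a value of 0.35 (adjusted p = 0.701, limma). In K36M samples 2 of these genes were called higher and 1 lower.

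Downstream of Kit, all 26 listed genes of KIT, PI3K and FOXO signalling were tested, and 8 were called higher and 1 lower in control embryos, with a median of 0.57. The exchange factor Sos1 rose by 1.77 (adjusted p = 0.0126, limma) and the adaptor Gab2 fell by 2.13 (adjusted p = 0.0363, limma). The kinase gene Akt1 rose by 1.37 (adjusted p = 0.0496, limma), a call that was lost under the median-of-ratios scaling. Kitl, which encodes KIT ligand, had a value of -0.63 (adjusted p = 0.643), Pik3ca of 0.15 (adjusted p = 0.803) and Foxo3 of -0.19 (adjusted p = 0.630) by limma. In K36M samples 7 were called higher and 3 lower, and Foxo3 was among the lower genes at -0.98 (adjusted p = 0.00431, limma), although its interaction was not called (adjusted p = 1.00, limma).

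Of 8 oocyte transcription factors tested, 1 was called higher and 3 lower in control embryos, with a median of -0.89. Nobox, whose product acts on oocyte genes, fell from 892 ± 35.2 TPM (SD, n = 3) to 63.1 ± 40.2 TPM (SD, n = 7), a log2 change of -4.01 (SE 0.62, adjusted p = 3.24e-05, limma), and Figla, the factor of zona pellucida genes, fell by 5.01 (adjusted p = 2.15e-05, limma). Taf4b rose by 2.29 (adjusted p = 4.67e-06, limma) and Sohlh1 had a value of 2.29 (adjusted p = 0.109, limma). All 10 oocyte markers were negative in controls and in K36M samples, with medians of -3.97 and -4.18, and 9 and 10 of them were called lower. Mos (-5.65, adjusted p = 0.00121) and Zp3 (-5.37, adjusted p = 1.03e-09) had the largest control changes among those called by limma. The values of Gdf9 and Bmp15 lay within the range of this list. No called gene of these lists changed sign under the quantile or median-of-ratios scaling.

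**Figure D4:**
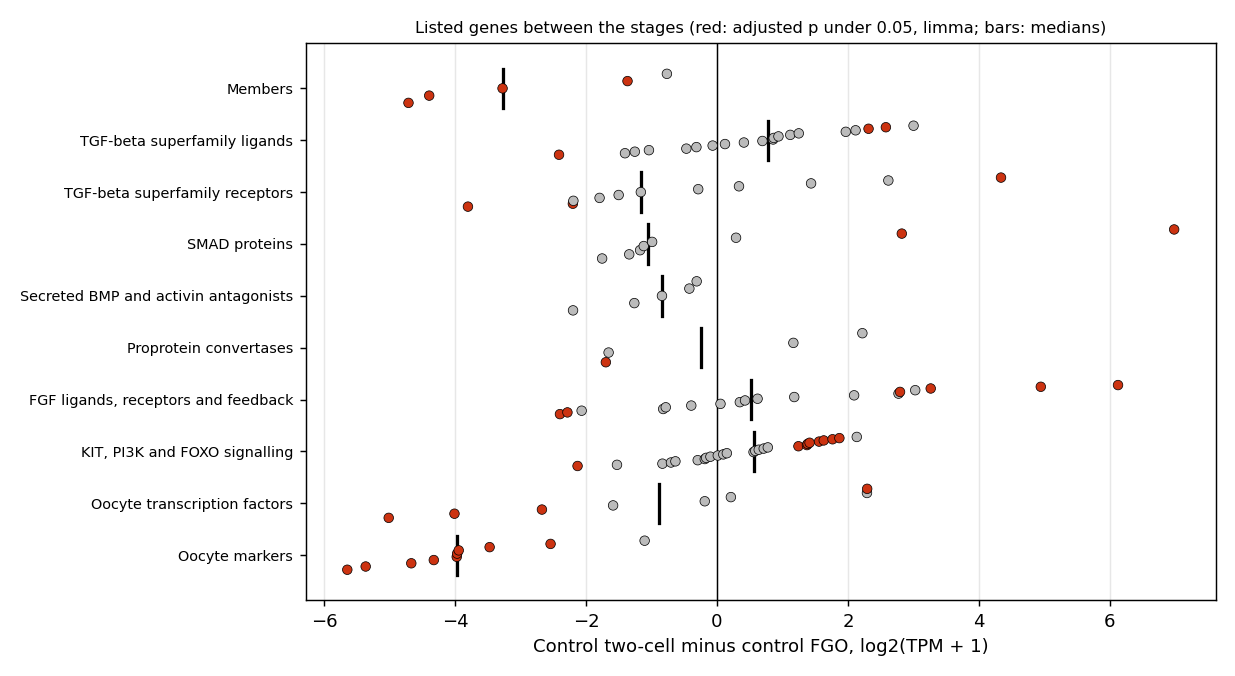
Log2 fold change from control FGO to control two-cell embryo for the members and the listed genes, 1 point a gene, red where the adjusted p of limma was under 0.05 and with a bar at the median of each list. Of the members, 4 of 5 are red and negative, the oocyte markers lie near -3.97, and the signalling lists hold points on both sides of 0.

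Between the genotypes, 0 genes of these lists were called by limma in FGOs or in embryos. At an unadjusted p under 0.05 in FGOs there were 3 of 10 tested superfamily ligands, 3 of 8 receptors, 1 of 6 SMAD genes, 0 of 4 antagonists, 0 of 4 convertases, 1 of 13 FGF genes, 3 of 26 KIT, PI3K and FOXO genes and 0 of 7 oocyte transcription factors, against 10.5% of all genes. In embryos the counts were 2 of 20, 1 of 11, 2 of 8, 0 of 5, 0 of 4, 3 of 18, 3 of 26 and 4 of 8 in the same order of lists, against 7.71% of all genes. Of the 10 oocyte markers, 7 were under that unadjusted threshold in FGOs and 1 in embryos. Nobox in embryos stood at 63.1 ± 40.2 TPM (SD, n = 7) in controls and 21.7 ± 14.7 TPM (SD, n = 8) in K36M samples, a log2 difference of -1.69 (SE 0.58, adjusted p = 0.556, limma). Foxo3 stood at 359 ± 106 TPM (SD, n = 7) and 218 ± 58.2 TPM (SD, n = 8), a difference of -0.71 (SE 0.24, adjusted p = 0.556, limma).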

How the data were processed

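RNA was sequenced from 3 control and 3 K36M FGO libraries and from single two-cell embryos. The authors trimmed reads with Trim Galore, mapped them to mm10 with Hisat2, removed ribosomal RNA reads with BEDTools, counted genes with featureCounts and deposited TPM values for 26214 genes. Annotation, gene lengths and strand setting are not given in the sources used here. Of 22 mapped libraries 21 were used: control embryo 4, which the study excluded, was left out, and the other assays of the series were not analysed here.

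Log2(TPM + 1) was tested, where a gene averaged 1 TPM or more over the fitted libraries, with limma 3.58.1 in R 4.3.3 (eBayes with trend) and adjusted by Benjamini-Hochberg, with a threshold of 0.05. FGOs and embryos were fitted apart, and stage contrasts and the interaction in 1 fit of 21 libraries. Single values and ratios were compared by exact permutation in Python 3.11.15 with scipy 1.17.1. Simulated data with known changes were used to test the limma script. RefSeq GRCm38.p6 gave positions, promoters and 99.7% of the gene symbols. Named genes were the members, H3f3b, a list of ligands, receptors and factors, up to 2 genes per list and direction with the largest control stage change, and the 3 nearest profiles of each member. Of the genes this rule names, 1 is not reported here. Members and lists were chosen with earlier results of these data known. Alternatives were other pseudocounts, filters, scalings and variance models, a replicate block, the added embryo and each library left out.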

Additional observations from a re-analysis of the deposited data

How the results depend on the processing

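Of 279 values recomputed under alternative settings other than leaving out a library, 260 kept their direction, their side of the threshold or their size; of 420 with 1 library left out, 386 did. Leaving out each embryo in turn was an alternative added after seeing the data. In FGOs, 0 genes were called with a pseudocount of 0.1, with all genes above 0, without the trend or with the replicate block, and 0 to 300 without 1 library. Leaving out a library moved Gdf9 in FGOs between -0.041 and 0.022, Bmp6 between -0.15 and 0.0016, and Bmp15 between -0.37 and -0.21. In embryos, 5 genes were called without the trend, 1 with array weights and 0 to 1 without 1 library. Bmp6 in embryos was 0.085 under the median of ratios, 0.0031 with array weights and 0.085 with control embryo 4, and -0.28 to 0.16 without 1 embryo. Fgf8 was 0.091 with control embryo 4 and -0.69 to 0.12 without 1 embryo. Between the stages 9730 genes were called in controls and 8527 in K36M samples with array weights, and 2844 to 4874 and 3421 to 5256 without 1 library. With array weights Bmp6 was -0.75 in controls (adjusted p = 0.00615, limma) and -0.67 in K36M samples (adjusted p = 0.0338, limma), and under the median of ratios -1.08 in controls (adjusted p = 0.0466, limma), and -0.94 to -0.51 without 1 library in controls. Kit in controls was -1.47 to -1.16 without 1 library. The interaction was called for 13 genes with all genes above 0, 1 without the trend, 3 with array weights and 0 to 3 without 1 library, and for Bmp6 it was -0.21 to 0.22. The Gdf9 to Bmp15 ratio changed by -1.34 to -0.99 in controls and -1.38 to -0.65 in K36M samples without 1 library. The cause was not tested. The sources did not state whether replicate numbers pair the libraries, and correlations over 3 libraries in an FGO group cannot settle it. Same-numbered deviations correlated by 0.015 to 0.10 in FGOs and -0.10 to 0.097 in embryos. Of the controls, 2 of 3 FGO and 1 of 7 embryo libraries correlated best with their own number, as did 2 K36M FGO libraries and 1 K36M embryo. With the block the Bmp6 interaction was -0.017 (adjusted p = 1.00, limma) and no call of a member changed. TPM gives no reads per gene, so the counting error of the low Fgf8 values cannot be given.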

Other observations

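The control embryo that the study excluded, embryo 4, held Gdf9 at 169 TPM, Bmp6 at 75.7 TPM and Kit at 109 TPM, each within what the 7 control embryos used spanned. Its Bmp15, at 512 TPM, was above their highest value of 447 TPM, and Fgf8 was listed at 0, below their lowest value of 1.00 TPM.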
